A study of Mus musculus with 29 samples.

Results

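The genes described here are 35 genes of the endoplasmic reticulum (ER) protein folding and stress machinery. They were chosen by function, as chaperones, oxidoreductases, degradation factors and stress sensors, and were matched to Ensembl identifiers by symbol. The choice was made with earlier results of these data known. All 35 were found among the 18240 genes measured, and all 35 passed the filter on low values. Expression was measured by bulk RNA sequencing of prefrontal cortex from C57BL/6J mice at postnatal day 40. HT mice had the genotype Tbr1+/K228E, a heterozygous amino acid change in TBR1, which is a T-box factor of cortical excitatory neurons. HT mice received vehicle (3 female and 3 male libraries), fluoxetine, a serotonin reuptake inhibitor (4 female, 4 male), or lithium, a mood stabiliser (3 female, 4 male). Wild-type (WT) mice received vehicle only (4 female, 4 male), so no drug could be compared with vehicle in WT mice. Every HT group carried the same Tbr1 allele, all 29 libraries have the same batch label, and no dose, route or duration is stated. The labels name no Cre line or promoter that would limit the allele to a cell type.

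Proteins that enter the secretory pathway are folded in the ER with the help of the chaperone encoded by Hspa5 (BiP), its co-chaperones, the lectins calnexin and calreticulin, and the protein disulfide isomerases. When unfolded proteins accumulate, the sensors encoded by Ern1 (IRE1), Eif2ak3 (PERK) and Atf6 start the unfolded protein response. IRE1 splices the Xbp1 transcript, and the transcription factors XBP1 and ATF6 then act on promoters of chaperone and degradation genes. Proteins that fail to fold are sent back to the cytosol for degradation by a complex that includes the products of Sel1l, Syvn1 and Herpud1.

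Libraries held 22.81 M to 31.71 M reads, and values are read counts normalised by 1 size factor per library. All 5 markers of cortical excitatory neurons were detected, and their summed value lay between 41582 and 60980 over the 29 libraries. Markers of neighbouring striatum and olfactory areas varied, and in 12 libraries the mean of either marker list lay more than 1 log2 unit above the median library. They were 6 of 8 HT fluoxetine, 2 of 7 HT lithium, 1 of 6 HT vehicle and 3 of 8 WT vehicle libraries. Tbr1 itself ran from 2151 to 3432 in WT vehicle and from 2858 to 4766 in the 21 HT libraries, and its level does not test which allele a mouse carries. The labels do not state that each library came from a separate animal, and p-values therefore measure the spread between these libraries. In bulk tissue, fewer cells of a type and less RNA per cell cannot be told apart.

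Promoters of the members were searched for motifs known from the unfolded protein response. RefSeq windows (build GRCm38.p6, from 250 bases before to 50 bases after the start of transcription) were matched for 29 of the 35 members. Hyou1, Manf, Atf6, Derl1, Sil1 and Sec61a1 were not matched, and Ero1l was matched under its symbol Ero1a. The ER stress response element, searched on both strands as CCAAT and CCACG with 9 bases of any kind between them, was found in 8 of the 29 members (27.6%) and in 37 of 27025 genes with a window (0.137%). Its second form, searched as ATTGG and CCACG with 1 base between them, was found in Dnajb11 and Herpud1 and in 12 of 27025 genes (0.0444%). The unfolded protein response element TGACGTGG was found in Txndc5 and Txndc11 (6.90% of the 29) and in 0.714% of genes. Read on the other strand this motif holds CCACG as well, and no member had matches to more than 1 of the 3 motifs. Shares over all genes include the members. The motifs are known from this same response, so the shares set side by side are a description only. A match is a run of letters, not a site shown to be bound in this tissue. The sequences below are the upstream sites of the members with either ER stress element, with the fixed letters of the motif in capitals, 5 bases on each side, and each read 5′ to 3′ on the strand of its gene.
Hspa5, chr2:34772020-34772048, plus strand: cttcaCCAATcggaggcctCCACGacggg
Hsp90b1, chr10:86705633-86705661, minus strand: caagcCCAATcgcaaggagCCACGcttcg
Hsp90b1, chr10:86705528-86705556, minus strand: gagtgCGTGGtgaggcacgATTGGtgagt
Calr, chr8:84847070-84847098, minus strand: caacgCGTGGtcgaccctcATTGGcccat
Canx, chr11:50325795-50325823, minus strand: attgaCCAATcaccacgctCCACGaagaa
Pdia6, chr12:17266486-17266514, plus strand: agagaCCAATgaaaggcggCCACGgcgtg
Dnajc3, chr14:118937822-118937850, plus strand: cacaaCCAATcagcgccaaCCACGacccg
Creld2, chr15:88819515-88819543, plus strand: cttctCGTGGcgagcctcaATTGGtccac
Syvn1, chr19:6046527-6046555, plus strand: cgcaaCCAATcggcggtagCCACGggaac
Herpud1, chr8:94386372-94386392, plus strand: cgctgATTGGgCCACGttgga
Hsp90b1 had 2 matches, and each of the other members listed had 1. The match of Dnajb11 lies 7 to 17 bases after the start of transcription and is not printed. In Calr, Creld2 and the lower Hsp90b1 line the motif reads as its reverse complement, CGTGG before ATTGG. The Hspa5 stretch printed overlaps an exon of Hspa5 in the GENCODE annotation of GRCm38, and the other stretches overlap no exon of their own gene. Exons of other genes were not checked.

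Levels are compared between genes as the mean normalised count over all libraries per kilobase of exon. The lectin chaperone gene Calr had the highest level, at 2758 per kilobase, followed by Hsp90b1 (GRP94) at 1991, Canx at 1581, Hspa5 at 1448 and the disulfide isomerase gene Pdia3 at 1319. Of the sensors on the same scale, Atf6 stood at 297 (rank 21 of 35), Eif2ak3 at 146 (rank 30) and Ern1 at 52.7, the lowest of all 35. Xbp1 stood at 534. The small secreted or stress-induced genes held ranks 25 to 27, with Sdf2l1 at 258, Manf at 247 and Creld2 at 243. The spread between libraries of a group, as a coefficient of variation of the normalised count, ran from 2.92% for P4hb to 12.4% for Sdf2l1.

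Lithium-treated HT mice had more mRNA of a set of ER chaperone genes than vehicle-treated WT mice, and no member was called lower. In HT lithium against WT vehicle, 8 of 35 members were called higher by limma (Benjamini-Hochberg adjusted p under 0.05 among 17881 tested genes). Over all genes 1.33% were called higher and 1.9% in either direction. The 8 were the chaperones Hspa5 and Hyou1, the disulfide isomerases Pdia4 and Pdia6, the small stress-induced genes Sdf2l1 and Manf, the transcription factor gene Xbp1 and the degradation gene Herpud1. Differences were modest, from 1.11-fold for Pdia6 to 1.31-fold for Sdf2l1, and libraries of both groups overlapped for every member. Of all genes, 0.28% had every HT lithium library above every WT library. The log2 difference was above 0 in 29 of 35 members and in 48.4% of all genes, and its median was 0.09 over the members and -0.0046 over all genes. At an unadjusted p under 0.05, 17 members were higher and 0 lower, beside 9.99% and 8.63% of all genes. The called members other than Hspa5 each correlated with it across libraries within groups, as given below, so the 8 calls are not independent results. The comparison joins genotype and drug, because no WT mice received lithium.

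Hspa5 (ENSMUSG00000026864, chromosome 2, 34771970 to 34777547, GRCm38), the central ATP-dependent chaperone of the ER lumen, had normalised counts from 5089 to 6232 (median 5539) in the 8 WT vehicle libraries. They ran from 5781 to 7465 (median 6762) in the 7 HT lithium libraries. The lower HT lithium libraries lay within the WT range and the upper ones above it. The log2 difference was 0.27 ± 0.047 (SE; limma adjusted p = 0.00242), 1.21-fold. Hyou1 (GRP170), the exchange factor that works with BiP, ran from 2535 to 3094 (median 2841) in WT and from 3018 to 3389 (median 3249) in HT lithium. It had the smallest p of the members, with a log2 difference of 0.21 ± 0.033 (SE; limma adjusted p = 0.00127). Hsp90b1, an abundant chaperone of the HSP90 family, differed by 0.12 ± 0.040 (SE; limma adjusted p = 0.124), and its libraries ran from 7150 to 8321 in WT and from 7683 to 9076 in HT lithium.

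**Figure D1:**
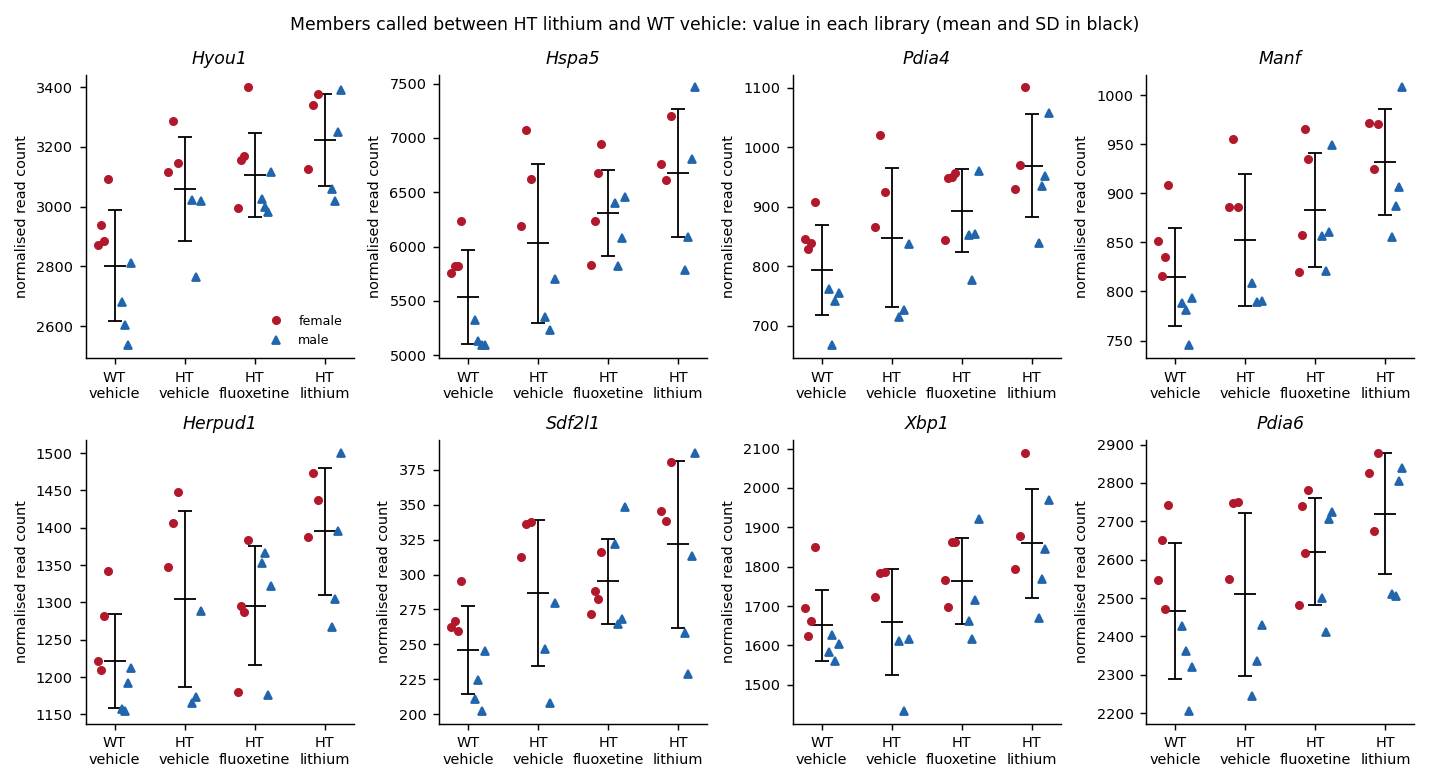
Normalised read count (vertical axis, not starting at 0) of the 8 members called between HT lithium and WT vehicle, in each library of the 4 groups, with females as red circles, males as blue triangles and the group mean ± SD in black. In every panel the HT lithium mean is the highest of the 4 and the WT vehicle mean the lowest, the groups overlap, and among vehicle libraries the females mostly lie above the males.

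Among the oxidoreductases, Pdia4, the disulfide isomerase ERp72, had counts from 667.2 to 907.5 (median 795.8) in WT and from 840.0 to 1101 (median 951.2) in HT lithium. Most HT lithium libraries lay above the highest WT library. The log2 difference was 0.29 ± 0.055 (SE; limma adjusted p = 0.00556). Pdia6, another disulfide isomerase, ran from 2206 to 2742 in WT and from 2506 to 2879 in HT lithium, with wide overlap and a log2 difference of 0.15 ± 0.038 (SE; limma adjusted p = 0.0445). Its call was lost in 15 of 41 other settings, and the gene overlaps Atp6v1c2 on the opposite strand. The other 5 members of this role, which include the glycoprotein isomerase Pdia3 and the oxidase Ero1l, were not called, with log2 differences from 0.02 (Txndc11) to 0.10 (Pdia3).

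The largest difference of any member was that of Sdf2l1, which encodes a partner of BiP and its J-domain co-chaperones. Its counts ran from 202.5 to 295.6 (median 252.2) in WT and from 228.8 to 387.1 (median 338.2) in HT lithium, where the lower male libraries lay inside the WT range. The log2 difference was 0.39 ± 0.087 (SE; limma adjusted p = 0.0184), 1.31-fold. Manf, an ER-resident and secreted neurotrophic factor, ran from 745.0 to 908.4 in WT and from 855.1 to 1008 in HT lithium, and differed by 0.20 ± 0.041 (SE; limma adjusted p = 0.0113). Creld2, another stress-induced ER protein gene, differed by 0.18 ± 0.059 (SE; limma adjusted p = 0.101) and was not called. Manf overlaps genes on the opposite strand (Dcaf1 and 4930524O07Rik) and Rbm15b on its own strand. The strand setting of the counting is not given in the sources used here.

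Xbp1, which encodes the transcription factor made active by IRE1, ran from 1560 to 1849 (median 1626) in WT and from 1670 to 2090 (median 1846) in HT lithium. The log2 difference was 0.18 ± 0.043 (SE; limma adjusted p = 0.0323), and the call was lost in 10 of 41 other settings. The gene total does not separate spliced from unspliced Xbp1. None of the 3 sensors was called. Atf6 differed by 0.11 ± 0.058 (SE; limma adjusted p = 0.306), Eif2ak3 by 0.03 ± 0.043 (adjusted p = 0.771) and Ern1 by -0.03 ± 0.064 (adjusted p = 0.863), and the signs of the last 2 changed in other settings. Ern1 ran from 391.5 to 488.3 in WT and from 389.3 to 454.6 in HT lithium, and Eif2ak3 from 742.8 to 952.4 and from 820.4 to 910.5, so the HT lithium libraries of both lay largely within the WT range.

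In ER-associated degradation, 1 of 8 members was called. Herpud1, which brings the degradation complex together at the membrane, ran from 1155 to 1342 (median 1211) in WT and from 1268 to 1500 (median 1395) in HT lithium. Most of its HT lithium libraries lay above the WT range, and the log2 difference was 0.20 ± 0.042 (SE; limma adjusted p = 0.0133). Sel1l, the scaffold of the HRD1 ligase complex, differed by 0.12 ± 0.034 (SE; adjusted p = 0.0791) and Syvn1, which encodes the HRD1 ligase, by 0.09 ± 0.034 (adjusted p = 0.144). The mannosidase-like genes Edem1 and Edem2 differed by -0.0059 ± 0.049 and -0.05 ± 0.054. Herpud1 overlaps a gene model on the opposite strand (Gm15890).

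No member of the calnexin cycle, the co-chaperones or the translocon was called in HT lithium against WT vehicle. Calr came nearest, with counts from 6939 to 8414 in WT and from 7618 to 8803 in HT lithium and a log2 difference of 0.12 ± 0.034 (SE; limma adjusted p = 0.0595). The J-domain co-chaperone Dnajb11 (ERdj3) differed by 0.11 ± 0.034 (adjusted p = 0.0793), Dnajc3 (P58IPK) by 0.11 ± 0.041 (adjusted p = 0.162) and Dnajb9 (ERdj4), a repressor of IRE1, by 0.06 ± 0.050 (adjusted p = 0.505). The translocon subunits Sec61a1 and Sec61b differed by -0.0030 ± 0.029 and -0.10 ± 0.056 (SE). Dnajb9 ran from 787.7 to 1005 in WT and from 841.4 to 985.8 in HT lithium, all within the WT range.

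The 10 members with either ER stress element in their window had a median log2 difference of 0.12, and all 10 were above 0. The 19 members with a window and neither element had a median of 0.04, with 14 above 0. In each set 3 members were called: Hspa5, Pdia6 and Herpud1 with an element, and Pdia4, Sdf2l1 and Xbp1 without. Without an element means only that the windows searched held no exact match to either form. This is a description and the difference between the sets was not tested.

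Of 87 other genes of the same pathways, listed by function with earlier results of these data known, 2 were called in this comparison, both higher. The median log2 difference of the 87 was 0.02. Prkcsh, the glucosidase II beta subunit, had a mean of 1670 ± 106 (SD, n = 8) in WT and 1814 ± 70.4 (SD, n = 7) in HT lithium, a log2 difference of 0.13 ± 0.030 (SE; limma adjusted p = 0.0256). Derl3, a channel-like degradation factor, was scarce, at 23.7 ± 7.26 (SD, n = 8) and 35.1 ± 6.61 (SD, n = 7), and differed by 0.60 ± 0.148 (SE; limma adjusted p = 0.0323).

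The count of 8 members rested on the whole set of libraries. Without HT lithium female 3 it was 4, and without the 12 libraries with high striatal or olfactory markers it was 0, where 5 HT lithium and 5 WT libraries remained and 18 genes in all were called. In that smaller fit the log2 differences were 0.29 for Hspa5, 0.18 for Hyou1, 0.30 for Pdia4 and 0.42 for Sdf2l1, close to those over all libraries. With the striatal and olfactory marker means as covariates, 7 members were called. Markers of cortical excitatory neurons moved in the same comparison, with all 5 above 0, 2 of them called higher (Tbr1 and Neurod6) and summed values of 48508 to 60980 in HT lithium and 41840 to 57515 in WT. Tbr1 is also the gene that carries the HT allele, so between HT and WT its level is not a measure of cell content alone. The summed values include it. Of mural cell markers 2 of 3, of astrocyte markers 1 of 5 and of endothelial markers 1 of 5 were called lower. Summed values in HT lithium and in WT were 5330 to 5938 and 5536 to 6770 for mural, 28421 to 30801 and 29703 to 37367 for astrocyte, and 4260 to 4553 and 4238 to 5405 for endothelial markers. Markers of olfactory areas had a median log2 difference of -1.21, with 0 of 6 above 0 and none called, and summed values of 651.4 to 7629 in HT lithium and 1320 to 15341 in WT. No marker in these 5 lists was at 0 in all libraries. The fit with marker covariates and the fit without the 12 libraries used the striatal and olfactory lists only. The part of the cell types in the result was not tested.

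**Figure D2:**
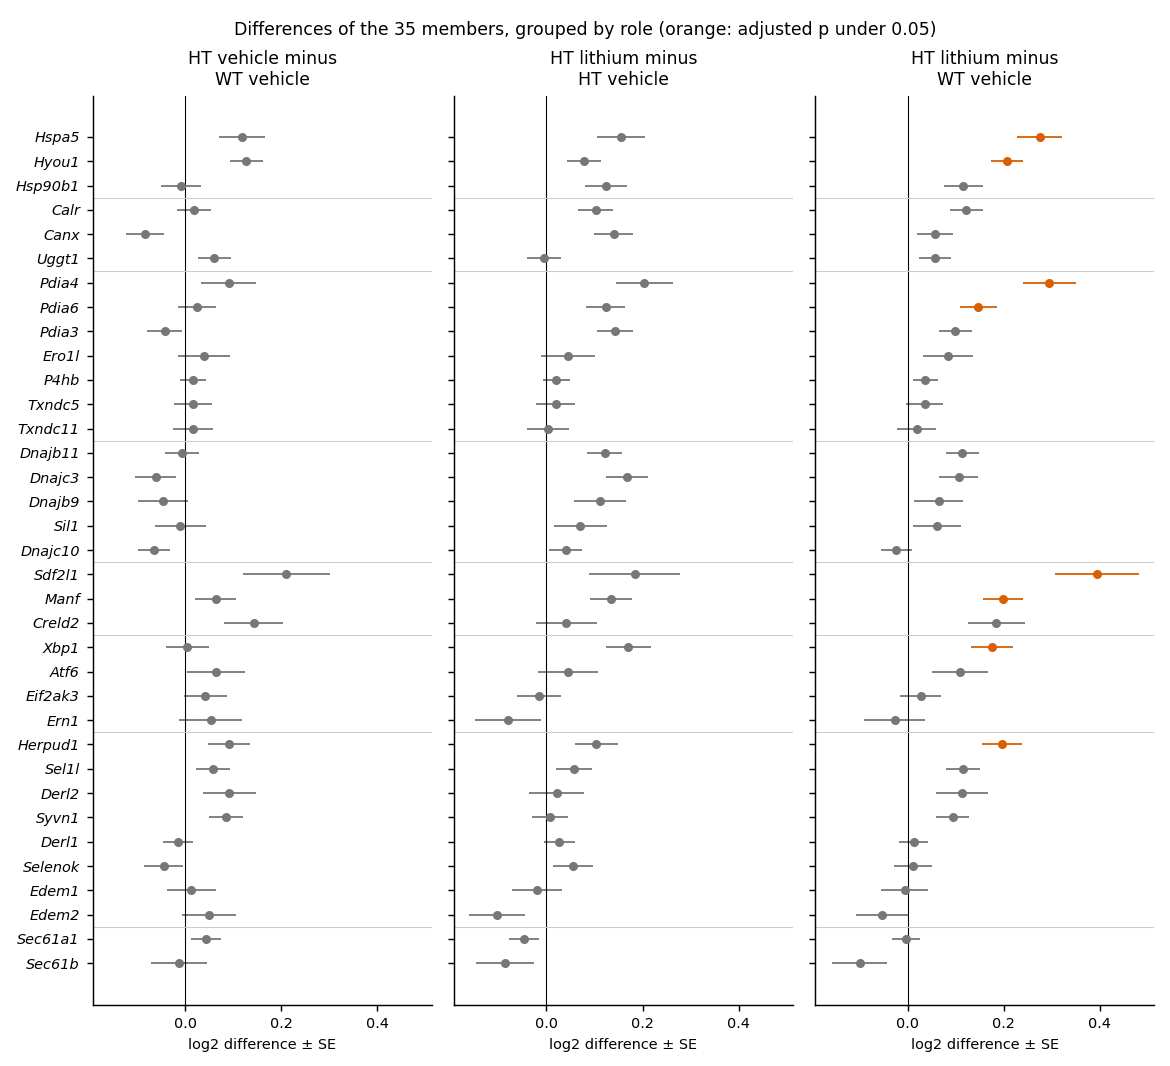
Log2 difference ± SE (horizontal axis) of the 35 members, ordered by role with lines between roles, for HT vehicle minus WT vehicle, HT lithium minus HT vehicle and HT lithium minus WT vehicle, with members past the threshold in orange. The 8 orange points are all in the right panel, which is the sum of the other panels for each gene.

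The difference between HT lithium and WT vehicle is the sum of the genotype step and the lithium step, which share the HT vehicle libraries, and no member was called in either step by itself. Hspa5, Pdia3, Dnajc10 and Edem2 lie on chromosome 2, as Tbr1 does. For Hspa5 the steps were 0.12 ± 0.048 and 0.16 ± 0.050 (SE). For Hyou1 the genotype step was 0.13 ± 0.035 and the lithium step 0.08 ± 0.036, and for Sdf2l1 they were 0.21 ± 0.091 and 0.18 ± 0.094. Xbp1 differed by 0.0048 ± 0.045 in the genotype step and by 0.17 ± 0.046 in the lithium step. Canx had a negative genotype step, -0.08 ± 0.039, and a lithium step of 0.14 ± 0.040.

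Between vehicle-treated HT and WT mice, 0 of 35 members were called, beside 0.207% of all genes (37 genes by limma, 29 by edgeR and 219 by DESeq2, of which 1 was a member). The 37 genes became 2 without HT vehicle female 1 and 176 without WT vehicle male 4. At an unadjusted p under 0.05, 6 members were higher, beside 6.71% of all genes, and Canx was lower, beside 5.58%. Hyou1 had the smallest p, with counts from 2765 to 3286 (median 3070) in the 6 HT vehicle libraries against 2535 to 3094 in WT (limma adjusted p = 0.103). Hspa5 ran from 5229 to 7076 (median 5943) in HT vehicle (limma adjusted p = 0.305), which covers most of the WT range and extends above it. Syvn1, which encodes the ligase of the degradation complex, ran from 1373 to 1550 in WT and from 1430 to 1635 in HT vehicle and differed by 0.09 ± 0.035 (SE; limma adjusted p = 0.308). Among the 87 other pathway genes 0 were called, and those with the smallest p were the chaperone gene Hspa13, at -0.17 ± 0.040 (adjusted p = 0.0624), and the translocon-associated Ssr3, at -0.12 ± 0.035 (adjusted p = 0.141).

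Within HT mice, lithium against vehicle gave 0 called members and 0.0% of all genes by limma, 0 genes by edgeR and 32 by DESeq2, with 2030 genes at an unadjusted p under 0.05. At that unadjusted level 14 of 35 members were higher and 0 lower, beside 5.87% and 5.48% of all genes. The members' median log2 difference was 0.06, with 28 of 35 above 0, beside -0.0037 over all genes. Markers of olfactory areas had a median of -1.36, with 0 of 6 above 0 and summed values of 2807 to 10350 in HT vehicle. The smallest p belonged to Dnajc3, an inhibitor of eIF2 kinases and a co-chaperone of BiP, which ran from 1248 to 1474 (median 1328) in HT vehicle and from 1400 to 1700 (median 1502) in HT lithium. Its log2 difference was 0.17 ± 0.044 (SE; limma adjusted p = 0.248). Pdia3 ran from 3610 to 4244 and from 4176 to 4503, with a log2 difference of 0.14 ± 0.037 (SE; adjusted p = 0.249), and Xbp1 from 1434 to 1786 and from 1670 to 2090. Canx, the membrane-bound lectin chaperone, was the 1 member whose libraries did not overlap, with 6621 to 7329 in HT vehicle and 7343 to 8110 in HT lithium, beside 0.352% of all genes (adjusted p = 0.249). Of the other pathway genes 0 were called, with Hspa13 at 0.14 ± 0.042 (adjusted p = 0.261) and Ube2j1, a conjugating enzyme of ER degradation, at 0.14 ± 0.046 (adjusted p = 0.276) having the smallest p.

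Fluoxetine against vehicle in HT mice gave 0 called members and 0.0% of all genes by limma, 0 genes by edgeR and 2 by DESeq2, with 1397 genes at an unadjusted p under 0.05. Of the members 3 were higher at that unadjusted level, beside 4.22% of all genes, and the median over all 35 was 0.02. Markers of striatum had a median log2 difference of 0.87 here, with 9 of 9 above 0. Markers of olfactory areas had a median of -0.52, with 0 of 6 above 0, and no marker of either list was called. Canx ran from 6571 to 8196 (median 7690) in HT fluoxetine, a range that held every HT vehicle library, and differed by 0.12 ± 0.039 (SE; limma adjusted p = 0.467). Its lowest and highest libraries, HT fluoxetine females 1 and 2, were among the 12 with high striatal or olfactory markers. Pdia3 ran from 3941 to 4507 and differed by 0.10 ± 0.036 (adjusted p = 0.508), and Dnajc3 ran from 1355 to 1610 and differed by 0.09 ± 0.042 (adjusted p = 0.632). These comparisons share the HT vehicle libraries with the lithium and genotype comparisons. Among other pathway genes 0 were called, with Hspa13 at 0.17 ± 0.040 (adjusted p = 0.402) and Fam8a1, a part of the HRD1 complex, at 0.13 ± 0.041 (adjusted p = 0.428).

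HT fluoxetine against WT vehicle called 1 member, Hyou1, beside 0.145% of all genes called higher and 0.19% in either direction. Hyou1 ran from 2982 to 3399 (median 3071) in HT fluoxetine, overlapping only the upper part of the WT range, and its log2 difference was 0.15 ± 0.032 (SE; limma adjusted p = 0.0433). The call was lost in 20 of 41 other settings, edgeR and 17 of 29 fits without 1 library among them. At an unadjusted p under 0.05, 9 members were higher, beside 5.03% of all genes. Markers of striatum had a median log2 difference of 0.66, with 9 of 9 above 0. Markers of olfactory areas had a median of -0.46, with 0 of 6 above 0, and no marker of either list was called. Hspa5 ran from 5822 to 6949 and differed by 0.19 ± 0.045 (SE; adjusted p = 0.0709), and Pdia4 from 777.0 to 959.6, with 0.17 ± 0.053 (adjusted p = 0.236).

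No member was called when the drugs were set against each other. Lithium against fluoxetine in HT mice called 0 members and 0.0% of all genes by limma, 0 genes by edgeR and 2 by DESeq2, with 626 genes at an unadjusted p under 0.05. The log2 difference was above 0 in 31 of 35 members and in 50.6% of all genes, with a member median of 0.04. At an unadjusted p under 0.05, 3 members were higher under lithium, beside 1.74% of all genes. Dnajb11, a co-chaperone of BiP, ran from 1264 to 1430 under fluoxetine and from 1323 to 1497 under lithium and differed by 0.09 ± 0.034 (SE; limma adjusted p = 0.985). Herpud1 differed by 0.11 ± 0.042 and Pdia4 by 0.12 ± 0.055, both at the same adjusted p.

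Female mice had more Hspa5 and Pdia4 mRNA than male mice over the 4 groups. The log2 difference of females over males was 0.15 ± 0.034 for Hspa5 (SE; limma adjusted p = 0.0456) and 0.18 ± 0.040 for Pdia4 (adjusted p = 0.0472), so 2 of 35 members were called higher in females, beside 0.207% of all genes (0.257% in either direction). Over all groups Hspa5 ran from 5754 to 7205 (median 6426) in 14 female libraries and from 5089 to 7465 (median 5781) in 15 male libraries. Pdia6, with 0.12 ± 0.028 (adjusted p = 0.0768), Hyou1, with 0.10 ± 0.024 (adjusted p = 0.104), and Sdf2l1, with 0.24 ± 0.063 (adjusted p = 0.126), were not called. At an unadjusted p under 0.05, 14 members were higher in females and Dnajc10 lower, beside 4.86% and 3.32% of all genes. Both calls lay near the threshold: edgeR called 0 members, DESeq2 4, and 21 of 29 fits without 1 library called 0, while the fit without HT lithium male 4 called 5. None of the cell type markers was called between the sexes in this average over the 4 groups.

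**Figure D3:**
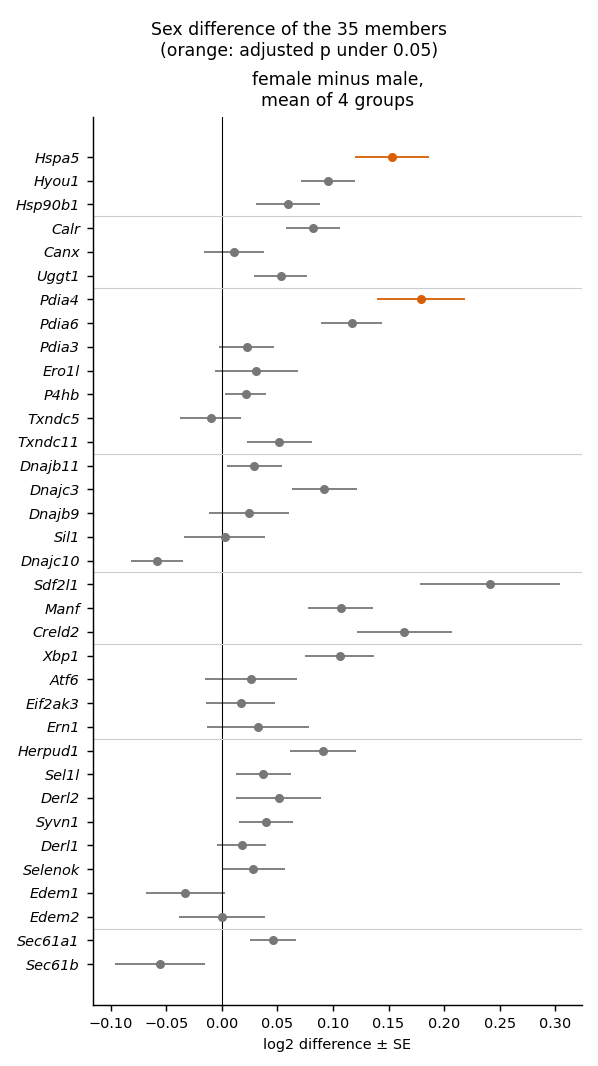
Log2 difference between females and males ± SE (horizontal axis) of the 35 members, averaged over the 4 groups and ordered by role, with the 2 members past the threshold in orange. The points of 30 members lie above 0, and Hspa5 and Pdia4 are the orange ones.

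The separation of the sexes was seen in the vehicle groups. In WT vehicle, all 4 female libraries lay above all 4 male libraries for 10 of 35 members, beside 3.93% of all genes, and below them for 1 (Dnajc10), beside 3.62%. In HT vehicle, all 3 females lay above all 3 males for 11 members, beside 4.79% of all genes, and 0 lay below them, beside 4.41%. Both groups shared 8 of these members, 80.0% of the WT list and 72.7% of the HT list: Hspa5, Hyou1, Calr, Pdia4, Pdia6, Sdf2l1, Creld2 and Manf. Over all genes, 0.436% were separated in this way in both vehicle groups. The remaining members were Hsp90b1 and Syvn1 in WT, and Dnajc3, Xbp1 and Herpud1 in HT. The shared members other than Hspa5 each correlated with it across libraries within groups, as given below, so these counts are not of independent results.

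For Hspa5 the females ran from 5754 to 6232 and the males from 5089 to 5324 in WT vehicle, and from 6190 to 7076 and from 5229 to 5697 in HT vehicle. Sdf2l1 ran from 259.3 to 295.6 in WT females and from 202.5 to 245.0 in WT males, and from 312.2 to 337.2 and from 208.2 to 279.3 in HT vehicle. In each of these 4 sets the lowest female lay above the highest male.

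In the drug groups no member had all females above all males, beside 2.94% of all genes in HT fluoxetine and 3.78% in HT lithium. Under fluoxetine Hspa5 ran from 5835 to 6949 in females and from 5822 to 6461 in males, and under lithium from 6616 to 7205 in females and from 5781 to 7465 in males. Sdf2l1 under lithium ran from 338.2 to 380.3 in females and from 228.8 to 387.1 in males, which held both the lowest and the highest library. In the other direction, females lay below males for Edem1 and Sec61b in HT fluoxetine and for Edem1 in HT lithium, beside 3.77% and 3.88% of all genes.

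The test of a different drug effect in females and males called none of the members. The female minus male difference of the fluoxetine effect was called for 0 of 35 members, beside 0.106% of all genes. At an unadjusted p under 0.05 it was lower for 5 members, beside 6.77% of all genes. The smallest p was that of Sec61b, a small subunit of the translocon, at -0.38 ± 0.117 (SE; limma adjusted p = 0.176). Herpud1 followed with -0.23 ± 0.086 (adjusted p = 0.237), Sdf2l1 with -0.48 ± 0.181 (adjusted p = 0.243) and Hspa5 with -0.24 ± 0.097 (adjusted p = 0.275). For lithium the difference was called for 0 members and 0.0% of all genes by limma and 0 genes by edgeR and DESeq2, with 523 genes at an unadjusted p under 0.05. Hspa5 stood at -0.21 ± 0.10 (adjusted p = 1.0), Dnajc3 at -0.18 ± 0.087 and Pdia4 at -0.22 ± 0.118. For genotype it was called for 0 members and 0.0% of all genes by limma, 0 genes by edgeR and 1 by DESeq2, with 1001 genes at an unadjusted p under 0.05. Sec61b, at 0.30 ± 0.117 (adjusted p = 0.847), Dnajc10 and Canx had the smallest p.

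Many members varied together from library to library. After the mean of each of the 8 groups was removed, 13 of the 34 other members correlated positively with Hspa5 across the 29 libraries (permutation test with 100000 resamples within groups, adjusted over 34 relations) and 0 negatively. Pearson's r was at least 0.5 for 14 of the 34 (41.2%), beside 0.57% of the 17880 genes other than Hspa5, the members included. Among all those genes, the 8 with the highest r were all members: Pdia4, Manf, Creld2, Calr, Sdf2l1, Pdia6, Hyou1 and Xbp1. Of the 20 highest, 11 were members and 0 were among the 87 other pathway genes. Values of a library share 1 size factor, and the ranks describe these libraries. The highest values were those of Pdia4 (r = 0.817, Spearman's rho = 0.794), Manf (r = 0.812, rho = 0.763), Creld2 (r = 0.805, rho = 0.763), Calr (r = 0.804, rho = 0.728) and Sdf2l1 (r = 0.796, rho = 0.822). Their adjusted permutation p for r ran from 0.00034 (Pdia4) to 0.00285 (Creld2).

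The other members past this threshold were Hyou1, Pdia6, Pdia3, Hsp90b1, Dnajc3, Xbp1, Herpud1 and Sec61a1. Xbp1 had r = 0.725 (rho = 0.767), Herpud1 r = 0.692 (rho = 0.646) and Hsp90b1, the abundant chaperone gene, r = 0.569. Sec61a1, the channel subunit of the translocon, had r = 0.641 (rho = 0.686) and an adjusted permutation p of 0.0425. The sensors had values near 0 or below: Atf6 had r = 0.090, Ern1 r = -0.054 and Eif2ak3 r = -0.142. Txndc5, a disulfide isomerase, had the lowest r, at -0.403. Without the 2 libraries farthest from the median of Hspa5, HT lithium male 4 and WT vehicle male 4, 13 members had r of at least 0.5, and members held the 4 highest ranks and 8 of the 20 highest among all genes. Without the 12 libraries with high striatal or olfactory markers 17 libraries remained, and 3 members passed the test. In those 17 libraries r was at least 0.5 for 17 of the 34 members. It was 0.932 for Pdia6, 0.928 for Creld2, 0.883 for Pdia4 and 0.845 for Herpud1. Members held the 2 highest ranks and 6 of the 20 highest. Top values over all genes were higher there too, with r = 0.819 at rank 20, against 0.627 over the 29 libraries. The share of all genes with r of at least 0.5 was not computed for the 17 libraries, so the member count has no background there.

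**Figure D4:**
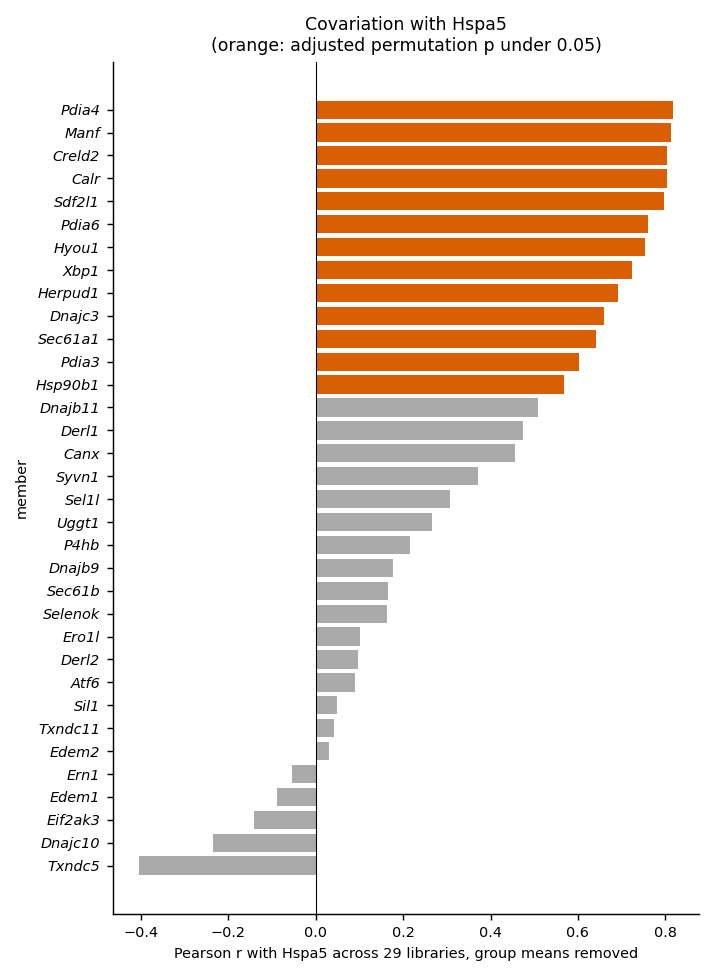
Pearson's r of each of the 34 other members with Hspa5 (horizontal axis) across 29 libraries after group means were removed, with members past the adjusted permutation threshold in orange. The 13 orange bars are all positive, and the sensors Atf6, Ern1 and Eif2ak3 lie near 0 or below.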

How the data were processed

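RNA from 29 prefrontal cortex samples was made into stranded mRNA libraries, per the labels' protocols. The table deposited by the authors holds a normalised signal per gene and library, and its values are whole multiples of 1 step per library (100.0% within 0.0001), that is, read counts divided by a size factor. The submitters' processing notes name Salmon 0.11.2, R 3.6.0, DESeq2 1.19.11 and build GRCm38, without their roles. The strand setting and annotation are not given in the sources used here. Read totals of 22.81 M to 31.71 M limit precision for scarce genes.

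The main test was limma 3.58.1 (R 4.3.3) on log2(value + 1), two-sided, with an intensity trend, a mean for each of 8 groups of genotype, treatment and sex (21 residual degrees of freedom), a filter that kept the 17881 genes reaching 10 in 3 or more libraries and Benjamini-Hochberg adjustment at 0.05. Fold changes are on the log2(value + 1) scale, and sex-averaged differences weight females and males equally. edgeR 4.0.16 and DESeq2 1.42.0 were run on recovered reads. In the 3 libraries with a step near 1 (HT fluoxetine females 1 and 2 and male 3) the stored values are close to the reads. The procedure was tested on simulated data for HT lithium against WT vehicle, over 17736 genes, where it recovered 61.2% of 67 genes changed 1.2-fold and 97.0% of 67 changed 1.5-fold.

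The members, the lists of 87 pathway genes and 63 cell markers (62 matched) and the tests were chosen with earlier results of these data known. All members were accounted for. Values were given in full for members past the threshold, for the 3 with the smallest p where fewer than 3 passed, and for 13 chosen ones. Other pathway genes were named when past the threshold or among the 2 with the smallest p for genotype and each drug. Alternatives were pseudocounts of 0.5 and 10, a filter at 50 or none, median-ratio rescaling, edgeR, DESeq2, only the groups compared, the replicate number as a block and leaving out each library. Covariates for striatal and olfactory markers, a fit without the 12 libraries high in either, and a block with the numbers of the library names, were chosen after seeing the data, as were the counts of members that separate females from males within a group and the ranks of all genes by their correlation with Hspa5. Levels per kilobase and gene positions use exons of a GENCODE annotation of GRCm38. Promoter windows are RefSeq's for GRCm38.p6.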

Additional observations from a re-analysis of the deposited data

Results flagged for a closer look

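In 88 sets of values (a named member in 1 of the 4 genotype and treatment groups), 4 held a library far from the others of its group, and chance flags about 1 in 20 such sets. Hyou1 was highest in HT fluoxetine female 4, at 3398.7, with the next library at 3168. Xbp1 was highest in WT vehicle female 4, at 1849.4, with the next at 1696. Dnajb9 was lowest in HT fluoxetine male 2, at 810.6, with the next at 892.4. Sec61b was lowest in HT lithium male 2, at 297.7, with the next at 325.0.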

How the results depend on the processing

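The 8 members called in HT lithium against WT vehicle became 0 without the 12 libraries with high striatal or olfactory markers, and 4 (without HT lithium female 3) to 10 without 1 library. The other settings gave 7 to 11. For genotype the count of 0 became 1 with DESeq2 and ranged from 0 to 1 without 1 library, with 1 without HT vehicle male 2 or WT vehicle male 4. For HT fluoxetine against WT vehicle the count of 1 became 0 with edgeR, with only the groups compared and without the 12 libraries, 2 with DESeq2 and with the marker covariates, and 0 to 2 without 1 library. For sex the count of 2 became 0 with edgeR and without the 12 libraries, 4 with DESeq2 and 0 to 5 without 1 library. Of the correlations with Hspa5, 13 passed the test over all libraries, 3 without the 12 libraries and 11 to 15 without 1 library. Without the 12 libraries 17 of 34 members had r of at least 0.5, against 14 over all libraries. No share of all genes was computed for that smaller set. Signs reversed for Ern1 in HT lithium against WT vehicle (0.014 with marker covariates, 0.0062 without HT lithium female 2, 0.0037 without WT vehicle male 1, from -0.049 to 0.0062 without 1 library), Eif2ak3 there (-0.0040 without WT vehicle male 1, to 0.056 without WT vehicle male 4) and Herpud1 for fluoxetine by sex (0.048 without the 12 libraries, which leaves 1 female and 1 male HT fluoxetine library). The cause of these changes was not tested, and fits that leave out libraries also rest on fewer of them. In all other comparisons the member count stayed at 0 in every setting run. Over all genes, the count of 340 for HT lithium against WT vehicle ran from 85 (without HT lithium female 3) to 723 (without WT vehicle male 4). For genotype the 37 genes became 176 when WT vehicle male 4 was left out and 2 when HT vehicle female 1 was. Without 1 library the count of 34 for HT fluoxetine against WT vehicle ran from 10 (without HT fluoxetine female 4) to 98 (without HT fluoxetine female 1), that of 46 for sex from 24 (without HT lithium female 1) to 68 (without WT vehicle male 4) and that of 19 for fluoxetine by sex from 4 (without HT vehicle female 3) to 50 (without HT fluoxetine female 2).

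In no comparison and sex with 3 or more pairs did every same-numbered pair have deviations correlated above 0.1, so the replicate number was not taken as a pairing. For genotype, fluoxetine and lithium 0 of 18 pairs exceeded 0.1 (-0.20 to 0.098), and 2 of 21 libraries correlated best with their own number. For lithium against fluoxetine 5 of 7 pairs did (0.070 to 0.311), and 6 of 7 libraries correlated best with their own number. These are the numbers of the titles. The library names of the HT vehicle females run from 2 to 4 where the titles run from 1 to 3. With the library numbers 4 of 17 pairs for genotype, fluoxetine and lithium exceeded 0.1 (-0.145 to 0.232), and 7 of 21 libraries correlated best with their own number. With the title number as a block, the count of members was 1 for genotype, 2 for HT fluoxetine against WT vehicle, 11 for HT lithium against WT vehicle and 8 for sex. With the library number as the replicate block they were 1, 2, 11 and 5. Lithium against fluoxetine called 0 members under both.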
